A study of Mus musculus with 12 samples.

Results

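Integrins and laminins are the receptors and the ligands through which a cell holds its extracellular matrix, and 36 of their chain genes were examined here out of 21864 protein-coding genes. They were taken from a written list of chains. By textbook expression they were sorted into 16 stromal, 9 leukocyte (here including the platelet chain Itga2b) and 11 epithelial chains. No measured value enters this rule, but the list was chosen with earlier results of these data known. For each gene, all called segments in the gene body and 20000 bp on each side were read from 4 lists of chromatin immunoprecipitation sequencing (ChIP-seq) peaks. Of 22555 distinct segments in the lists, 107 lay at these genes.

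The lists describe mesenchymal stem cells (MSCs), stromal cells that can form bone, cartilage and fat. The cells came from the hind limbs of wild-type male C57BL6/N mice aged 3-5 months. Per the methods of the study, they grew at 2% oxygen until the sort. The sorted cells were then split and either kept at 2% oxygen (hypoxia) or moved to 21% oxygen (normoxia). The sample labels call them bone-marrow cells purified by flow sorting on day 12, whereas the methods of the study describe isolation from the endosteal surface of the bone. Each oxygen level had 2 libraries for H3K27ac (histone H3 acetylated at lysine 27, a mark of promoters and enhancers in use), 2 for H3K4me3 (histone H3 trimethylated at lysine 4, a mark of promoters) and 2 input libraries, 12 in all. Cells of both groups were sorted as negative for CD45 and TER-119 and positive for Sca-1 and CD140a, so cells of blood lineage were gated out in either group.

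Each of the 4 lists pools both libraries of its group and gives a position and a score for each segment, with no value for a single library. The sequencing depth and the spread between replicates are unknown at this level. No difference between oxygen levels below has a replicate check, and no test was made. A call made in all cells and one made in a share of them cannot be told apart in these bulk lists.

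An integrin is a pair of an alpha and a beta chain that spans the membrane, binds matrix proteins or receptors of other cells outside, and joins the actin cytoskeleton through adaptors inside. A laminin is a trimer of an alpha, a beta and a gamma chain and forms the sheet-like basement membrane, to which several integrins bind. The choice of chain differs between tissues: chains paired with Itgb2 or Itgb7 serve leukocytes, Itga6 with Itgb4 anchors epithelia, and collagen and fibronectin receptors built on Itgb1 serve stromal cells.

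The start sequences of these genes differed in their content of CpG, the dinucleotide that is dense at the promoters of many widely used genes. To show this, the 300 bases from 250 before to 50 after the start are printed 5′ to 3′ for 8 genes from RefSeq (GRCm38.p6), with each CpG in capitals. Itgb5 and Itga5 carried both marks at the start.
Itgb5 (chr16:33829415-33829714, plus strand): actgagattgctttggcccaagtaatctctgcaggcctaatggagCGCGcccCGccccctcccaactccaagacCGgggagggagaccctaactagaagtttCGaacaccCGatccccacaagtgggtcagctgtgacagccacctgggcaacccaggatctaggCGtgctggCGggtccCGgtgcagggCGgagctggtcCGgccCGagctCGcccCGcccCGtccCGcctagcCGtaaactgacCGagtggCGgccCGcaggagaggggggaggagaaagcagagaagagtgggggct
Itga5 (chr15:103366742-103367041, minus strand): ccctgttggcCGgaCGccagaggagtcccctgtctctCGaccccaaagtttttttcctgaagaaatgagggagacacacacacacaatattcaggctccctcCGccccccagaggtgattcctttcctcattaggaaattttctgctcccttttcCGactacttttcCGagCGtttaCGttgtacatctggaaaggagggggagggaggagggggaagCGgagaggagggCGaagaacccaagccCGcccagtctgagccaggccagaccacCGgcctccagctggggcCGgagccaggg

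Itga2, Itga3 and Lamb1 carried H3K4me3 without H3K27ac.
Itga2 (chr13:114932051-114932350, minus strand): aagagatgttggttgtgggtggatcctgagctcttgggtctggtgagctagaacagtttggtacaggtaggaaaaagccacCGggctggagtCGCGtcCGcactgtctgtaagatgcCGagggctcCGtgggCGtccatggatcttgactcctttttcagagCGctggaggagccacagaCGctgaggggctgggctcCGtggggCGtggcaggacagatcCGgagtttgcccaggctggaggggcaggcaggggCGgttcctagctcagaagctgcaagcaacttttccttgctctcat
Itga3 (chr11:95076665-95076964, minus strand): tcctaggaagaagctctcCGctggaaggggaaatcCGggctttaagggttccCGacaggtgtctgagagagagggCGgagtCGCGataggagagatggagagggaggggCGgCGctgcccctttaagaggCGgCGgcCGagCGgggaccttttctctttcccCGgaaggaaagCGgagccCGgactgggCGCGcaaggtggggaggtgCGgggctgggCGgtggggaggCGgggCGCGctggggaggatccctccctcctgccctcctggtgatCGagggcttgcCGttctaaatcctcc
Lamb1 (chr12:31265043-31265342, plus strand): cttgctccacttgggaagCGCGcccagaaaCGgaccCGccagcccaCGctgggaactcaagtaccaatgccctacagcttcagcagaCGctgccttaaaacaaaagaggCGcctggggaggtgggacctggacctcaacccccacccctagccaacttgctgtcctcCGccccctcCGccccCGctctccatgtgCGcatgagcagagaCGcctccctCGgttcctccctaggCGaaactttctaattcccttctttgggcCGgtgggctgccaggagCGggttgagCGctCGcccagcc

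Itgam and Itgax carried neither mark, and Itgb7 carried H3K27ac without H3K4me3. Lamb1 and Itgb7 were added to the set after their calls had been seen.
Itgam (chr7:128062390-128062689, plus strand): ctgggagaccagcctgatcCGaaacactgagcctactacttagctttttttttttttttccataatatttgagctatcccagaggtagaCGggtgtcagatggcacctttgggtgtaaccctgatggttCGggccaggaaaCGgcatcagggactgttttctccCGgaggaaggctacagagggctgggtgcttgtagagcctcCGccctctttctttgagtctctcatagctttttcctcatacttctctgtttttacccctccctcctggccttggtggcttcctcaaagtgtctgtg
Itgax (chr7:128129300-128129599, plus strand): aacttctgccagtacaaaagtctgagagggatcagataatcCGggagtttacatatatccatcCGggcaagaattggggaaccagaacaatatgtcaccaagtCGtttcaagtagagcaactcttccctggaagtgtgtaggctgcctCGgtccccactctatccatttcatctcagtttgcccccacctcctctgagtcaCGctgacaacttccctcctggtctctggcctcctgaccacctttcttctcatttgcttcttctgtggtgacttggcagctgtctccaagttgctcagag
Itgb7 (chr15:102231886-102232185, minus strand): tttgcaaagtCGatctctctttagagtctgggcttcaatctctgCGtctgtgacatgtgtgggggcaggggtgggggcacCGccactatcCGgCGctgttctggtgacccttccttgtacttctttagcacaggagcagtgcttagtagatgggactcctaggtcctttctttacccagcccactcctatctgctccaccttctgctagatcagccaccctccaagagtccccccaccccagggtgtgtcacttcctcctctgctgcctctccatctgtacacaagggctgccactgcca

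The CpG count in these windows was 20 in Itgb5, 13 in Itga5, 13 in Itga2, 24 in Itga3 and 18 in Lamb1. It was 6 in Itgam, 5 in Itgax and 5 in Itgb7. Few CpG were not particular to leukocyte chains, since the window had 4 in the stromal chain Lamb2, which carried both marks, and 6 in the stromal chain Itga10. RefSeq had such a window for 23 of the 36 genes, and in 20 its start lay within 1000 bp of the GENCODE start. Among these 20, the median count was 17 in 10 stromal chains, 6 in 5 leukocyte chains and 13 in 5 epithelial chains, beside 7 over all 32544 promoters.

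Which chains carried the marks at their promoters was asked first. A gene was counted as marked when a segment lay within 1000 bp of any of its annotated transcript starts. H3K4me3 was called at a start of 24 of the 36 genes, beside 58.9% of all protein-coding genes. By class, these were 15 of 16 stromal, 8 of 11 epithelial and 1 of 9 leukocyte chains. Each gene had the same call at both oxygen levels.

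H3K27ac was called at a start of 12 of the 36 genes at both oxygen levels, beside a background of 37.6% in hypoxia and 36.9% in normoxia. The share over all 36 was therefore close to that of genes at large, and the classes differed. The mark lay at 9 of 16 stromal chains, 2 of 9 leukocyte chains and 1 of 11 epithelial chains. No gene gained or lost H3K27ac at a start between hypoxia and normoxia.

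Read together, the marks gave 4 states. Both marks were present at 10 genes (background 36.4%). These were the stromal chains Itga1, Itga5, Itga11, Itgav, Itgb1, Itgb5, Lama4, Lamb2 and Lamc1, and the epithelial chain Itgb8. H3K4me3 without H3K27ac was present at 14 genes (background 22.5%), of which 6 were stromal (Itga7, Itga8, Itga9, Itgb3, Lama2 and Lamb1), 7 epithelial and 1 leukocyte (Itga4). H3K27ac without H3K4me3 was found at 2 genes, Itga2b and Itgb7 (background 1.14%). The call at Itga2b depended on the window, since its segment ended 622 bp inside the gene start, and 1 of 9 leukocyte chains kept H3K27ac when at least 50% of the window had to be covered. Neither mark was found at 10 genes (background 40%), namely 6 leukocyte chains, the epithelial chains Itgb6, Lamb3 and Lamc3, and a single stromal chain, Itga10, a collagen receptor of cartilage.

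**Figure D1:**
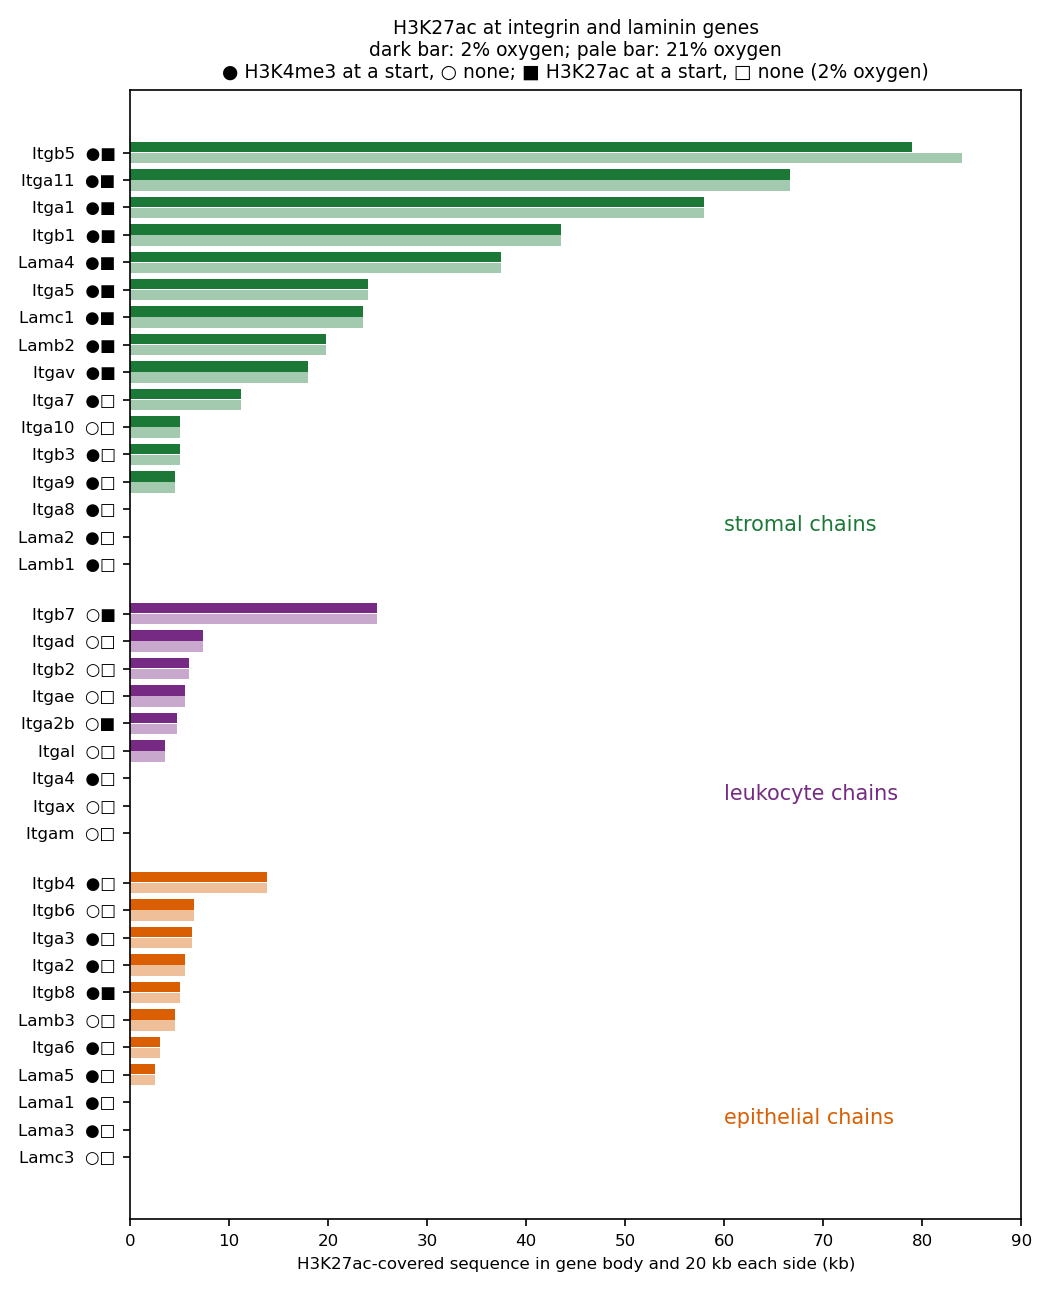
Bars give the sequence (kb) called as H3K27ac in the gene body and 20 kb on each side for each of the 36 genes, dark at 2% oxygen and pale at 21% oxygen, and symbols give the marks called at a start. The 5 longest bars are stromal, and the paired bars differ in length at Itgb5 alone, with 79 kb in hypoxia and 84 kb in normoxia.

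The share of the locus under H3K27ac was then compared over all chains of a class, with or without the mark at a start. The median share of the locus under H3K27ac in hypoxia was 16.3% for stromal, 5.68% for leukocyte and 2.79% for epithelial chains, beside 2.53% for all protein-coding genes. Inside the gene body alone the median was 15.4% for stromal chains and 0% for the other classes and for all genes. H3K27ac reached the gene body of 11 of 16 stromal, 5 of 11 epithelial and 2 of 9 leukocyte chains (background 42%). The median locus length was 134 kb for stromal, 139 kb for epithelial and 78.9 kb for leukocyte chains, beside 57.4 kb for all protein-coding genes, so stromal and epithelial loci were of similar length.

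A domain was defined as a run of touching H3K27ac segments. A domain over 10 kb lay at 9 of 16 stromal, 2 of 9 leukocyte and 1 of 11 epithelial chains in hypoxia (background 13.1%). Domains were counted wherever they reached into the flanks, including those at neighbouring genes. The stromal count includes Itga7, which had no H3K27ac at its start and a 12500 bp domain over the starts of neighbours. It leaves out Itgav, which had H3K27ac at its start and a widest domain of 8000 bp.

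Among the beta chains, Itgb5, which pairs with Itgav in a receptor for vitronectin, had the most acetylated sequence of all 36 genes. The gene (ENSMUSG00000022817.15) lies on the plus strand at chr16:33829665-33949338. H3K27ac covered 79 kb of its locus in hypoxia and 84 kb in normoxia, or 49.5% and 52.6%. The start segment of 6000 bp carried both marks and had a score of 1000 at both oxygen levels. Further segments of 37500 bp and 32000 bp lay inside the gene, and the first of them holds an alternative start.

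Itgb1, the common partner of the collagen, laminin and fibronectin receptors, lies at chr8:128685654-128733200 on the plus strand. H3K27ac covered 43.5 kb of its locus at both oxygen levels, or 49.7%, which placed it at the 98.1st percentile of protein-coding genes. Most of this was a single segment of 34000 bp in the gene body, and a start segment of 4000 bp carried both marks. Itgb3, which also pairs with Itgav, had H3K4me3 at its start and H3K27ac in an intronic segment of 5000 bp.

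Of the stromal alpha chains, the collagen receptors Itga11 and Itga1 had the most kb under H3K27ac, while by share of the locus Itga5 (38.4%) lay between Itga11 (45.6%) and Itga1 (30.7%). Itga11 (chr9:62677826-62783982, plus strand) had 66.7 kb under H3K27ac at both oxygen levels. Its widest segment, 49500 bp long with a score of 1000 in either list, lay upstream, and its near edge was 17826 bp from the start. The part within the 20000 bp flank was counted, so most of this segment fell outside the 66.7 kb.

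Itga1 (chr13:114953096-115101964, minus strand) had 58 kb under H3K27ac at both oxygen levels. The start of another gene, Pelo, lies within Itga1. An intronic segment of 3000 bp with both marks covered the Pelo start, and Pelo was the nearest coding start for 5 of the 6 H3K27ac segments at Itga1. Itga5, the alpha chain of the classical fibronectin receptor, had 24 kb under H3K27ac in a single domain over its start and most of its body. Itgav had 18 kb, with a start segment scored 1000 at both oxygen levels.

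The remaining stromal alpha chains had fewer kb. H3K27ac covered 11.2 kb at Itga7, 5 kb at Itga10 and 4.5 kb at Itga9, and none at Itga8. At Itga7, a short gene, this was 17.4% of the locus and more than the 14.7% at Itgav. The segments at Itga7 and Itga10 lay in the upstream flank, and those at Itga7 covered the starts of Rdh5 and Bloc1s1. The segment at Itga9 lay in the gene body.

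**Figure D2:**
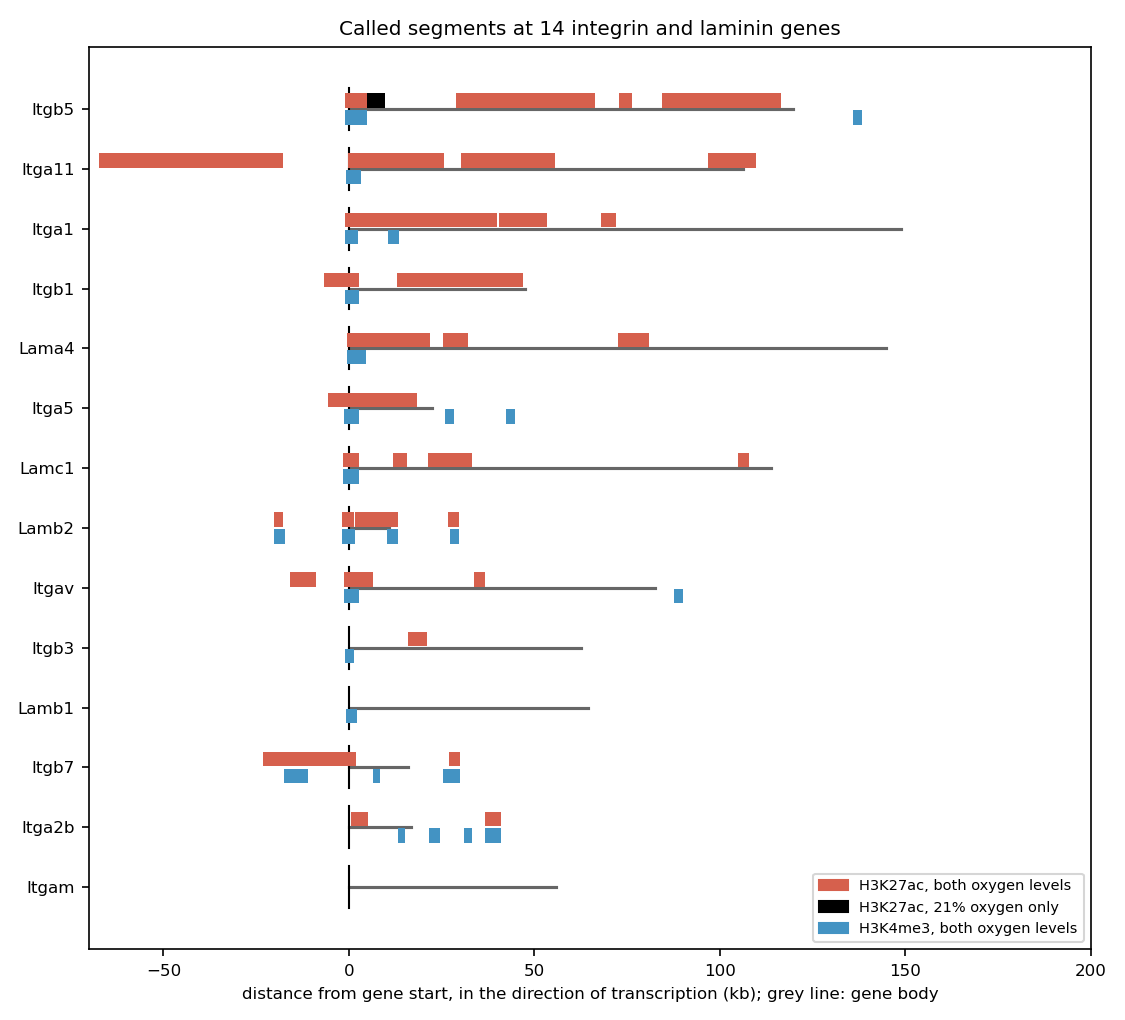
Called segments are drawn by distance (kb) from the gene start in the direction of transcription for 14 genes, with H3K27ac above and H3K4me3 below each gene line. At Itgb5 the 5000 bp segment called at 21% oxygen alone touches the start segment, at Itgb7 the H3K27ac over the start runs upstream, and Itgam has no segment.

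Laminin chains were marked unevenly. Lama4, Lamb2 and Lamc1 carried both marks at the start, and these can form a laminin trimer of vessels and mesenchyme. H3K27ac covered 37.5 kb at Lama4, 23.5 kb at Lamc1 and 19.8 kb at Lamb2, the same at both oxygen levels. Lamb2 is a short gene of 10795 bp, and some of its acetylated sequence lay at the starts of Usp19 and Qars.

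The other stromal laminin chains, Lama2 of muscle and nerve and Lamb1, had H3K4me3 at a start and no H3K27ac anywhere in the locus. The same held for the epithelial chains Lama1 and Lama3, while Lamc3 had no H3K27ac and no mark at its start. Lama5, a widespread epithelial and vascular chain, had H3K4me3 at the start, and its single H3K27ac segment lay over the start of Adrm1. In all, 5 of 10 laminin and 4 of 26 integrin genes had no H3K27ac in the locus (background 45.1%).

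The leukocyte chains carried little of their own. Itgam and Itgax, chains of the complement receptors of myeloid cells, had no segment of either mark within 20000 bp. Itgal, Itgb2, Itgad and Itgae had no H3K27ac inside the gene. The segments counted there lay in the flanks, over or nearest to the starts of neighbours such as Zfp768 at Itgal and Fam207a and Pttg1ip at Itgb2, except that a 5500 bp segment upstream of Itgae had Itgae as its nearest start. Itga4, which pairs with Itgb1 or Itgb7 and binds Vcam1, had H3K4me3 at its start and no H3K27ac.

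Itgb7, the beta chain of gut-homing lymphocytes, was the exception in extent. H3K27ac covered 24.9 kb of its locus at both oxygen levels, or 44.6%. A segment of 13000 bp reached over the start, with a score of 74 in both lists, and continued upstream through segments at the start of Rarg, a retinoic acid receptor. This domain measured 29500 bp in all and covered 12.2% of the Itgb7 gene body.

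Itga2b, the alpha chain of the platelet fibrinogen receptor, had a segment of 4500 bp just inside its start, with a score of 136 in both lists. It covered 26.7% of the gene body. None of the 8 erythroid and megakaryocyte markers examined, Pf4 and Gp9 among them, had H3K27ac at a start.

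Of the epithelial chains, Itgb4, of the hemidesmosome, had the most H3K27ac, 13.8 kb. Its segments lay mainly in the flanks, towards Recql5, Galk1 and H3f3b, and its own start had H3K4me3 without H3K27ac. Itgb6 had 6.5 kb in an intron and no mark at a start. Itga3, a laminin receptor, had 6.3 kb in its upstream flank, of which the farther segment of 7500 bp had Dlx3 as its nearest start and was counted in part.

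Itga2, a collagen receptor, had 5.5 kb near its far end. Itgb8, an activator of latent TGF-beta, had 5 kb, of which a segment of 2000 bp with both marks lay over its start. The H3K27ac score of that segment was 58 in both lists, which is low in either.

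Which gene each segment lay nearest to was also counted by class. The nearest coding start was that of the chain itself for 28 of 46 H3K27ac segments at stromal chains (60.9%), 3 of 12 at leukocyte chains (25%) and 5 of 14 at epithelial chains (35.7%). At stromal chains 14 segments held both exonic and intronic sequence of the gene and 11 were intronic. At leukocyte chains 10 of 12 lay in a flank. The same shares over all protein-coding genes were not computed. Leukocyte loci were also shorter than stromal ones, so the 20000 bp flanks made up more of them. The part of locus length in these shares was not tested.

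Whether oxygen changed the calls was asked next. Segments listed for a mark in hypoxia but not in normoxia are termed hypoxia-only, and those with the opposite pattern normoxia-only. Of 72 H3K27ac segments at the 36 genes, 71 were shared, 0 were hypoxia-only (background 3.82% of 15421 segments) and 1 was normoxia-only (background 1.41%). All 64 H3K4me3 segments were shared, beside 0.0411% hypoxia-only and 0.0205% normoxia-only among all H3K4me3 segments. Counted by gene, 0 of 36 had a hypoxia-only H3K4me3 segment (background 0.00915%) and 0 of 36 a normoxia-only one (background 0.0549%).

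The normoxia-only segment lay in an intron of Itgb5, at chr16:33834501-33839500. It measured 5000 bp, touched the start segment and began 4836 bp after the gene start. Its score of 54 stood at the 6th percentile of the normoxia list, near the lowest score of 50. By genes, 1 of 36 had a normoxia-only H3K27ac segment (background 1.15%) and 0 of 36 a hypoxia-only segment (background 4.68%). Its 300 central bases are printed from the mm10 genome because it was the only segment to differ, with the single AP-1 match, TGACTCA, in capitals.
Itgb5 segment centre (chr16:33836851-33837150, plus strand): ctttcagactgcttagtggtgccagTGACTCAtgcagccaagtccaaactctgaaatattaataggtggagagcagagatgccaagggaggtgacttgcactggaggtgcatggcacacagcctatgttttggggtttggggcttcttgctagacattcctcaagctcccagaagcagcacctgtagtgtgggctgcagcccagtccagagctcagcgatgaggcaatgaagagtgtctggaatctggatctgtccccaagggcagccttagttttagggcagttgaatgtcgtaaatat

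Scores of the 71 shared segments were then set side by side. The score runs from 50 to 160, with the remaining segments at 1000. It was higher in hypoxia for 30 segments, higher in normoxia for 11 and equal for 30. The share higher in hypoxia was 42.2%, beside 39.9% of all 14614 shared H3K27ac segments. As a percentile within its own list, the median difference between hypoxia and normoxia was -1.67 points for these segments and -1.67 points over all shared segments, which is the value given by a segment scored 1000 in both lists. By percentile, 24 of the 71 segments stood higher in hypoxia and 47 in normoxia. The share higher in hypoxia was 33.8%, beside 30.3% of all shared segments. Raw scores and percentiles thus leaned in opposite directions, at these genes and over all shared segments. The median score was 111 in the hypoxia list and 102 in the normoxia list.

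Among the larger differences were segments at neighbours of leukocyte chains. A segment over the start of Pttg1ip beside Itgb2 scored 130 in hypoxia and 64 in normoxia. One near Tgfb1i1 beside Itgad scored 1000 and 122. In the other direction, the start segment of Itga11 scored 82 in hypoxia and 102 in normoxia. An intronic segment of Lamc1 scored 155 and 1000, and one of Itgb6 scored 72 and 88.

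**Figure D3:**
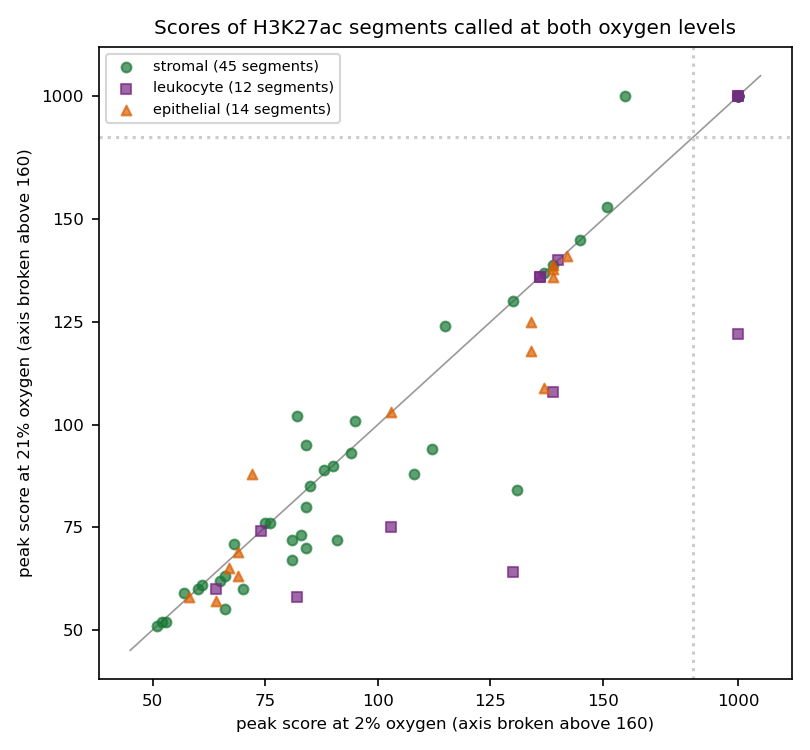
Each point is 1 of the 71 H3K27ac segments called at both oxygen levels, with its score at 2% oxygen on the x axis and at 21% oxygen on the y axis, both broken above 160, and the line marks equal scores. Of the points, 30 lie on the line, 30 below it (higher in hypoxia) and 11 above it.

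CpG content of the starts was set against the marks. The ratio of observed to expected CpG in 1000 bp around the gene start had a median of 0.613 in stromal, 0.239 in leukocyte and 0.56 in epithelial chains, beside 0.552 over all protein-coding genes. By state it was 0.598 with both marks, 0.597 with H3K4me3 alone, 0.197 with H3K27ac alone and 0.265 with neither mark. The corresponding medians over all genes were 0.769, 0.669, 0.234 and 0.193. Among the chains with H3K4me3, the medians with and without H3K27ac were nearly the same. The ratio was taken at the outermost gene start, whereas the H3K4me3 of Itga6 lay at another start 40385 bp further in and that of Lama2 at one 2258 bp further in.

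**Figure D4:**
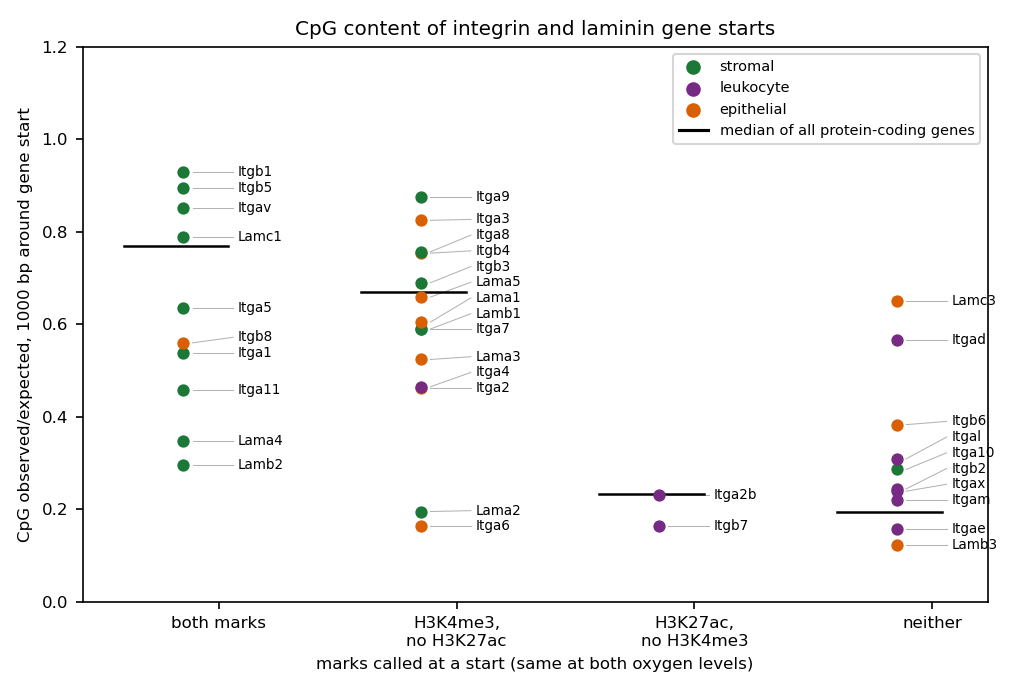
Points give the observed to expected CpG ratio of the 1000 bp around the outermost start of each of the 36 genes by the marks called at any of its starts, and lines give the median of all protein-coding genes in that state. Lama2 and Itga6, whose H3K4me3 lies at another start, are low among genes with that mark, and Lamc3 and Itgad lie high among genes with neither mark.

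Motif matches were counted on both strands in the 27 H3K27ac segments at these genes that lay over 1000 bp from any H3K4me3 segment, and in all 5678 such segments. AP-1 (TGACTCA or TGAGTCA) gave 0.21 matches per kb at these genes and 0.252 in all. RUNX (TGTGGT) gave 0.947 and 0.907, TEAD (GGAATG) 0.641 and 0.65, and the hypoxia response element core (ACGTG) 0.647 and 0.661. The GC box (GGGCGG) gave 0.195 and 0.158, and the PU.1 letters GAGGAAG gave 0.607 and 0.436. Of the 196 PU.1 matches at these genes, 86 lay in soft-masked (repeat) sequence, and 49 lay in a single 25500 bp segment of Itga11, 36 of them soft-masked. Without that segment, left out after the data had been seen, the density was 0.494 per kb. The soft-masked share was not computed for all 5678 segments, and no segment was left out of their 0.436. In the 300-base promoter windows of 20 of these genes, AP-1 letters occurred in 1, RUNX in 2, TEAD in 2, PU.1 in 5, the GC box in 10 and ACGTG in 0. The shares over all promoters were 5.19% for AP-1, 16.7% for RUNX, 14.6% for TEAD, 13.4% for PU.1, 35.9% for the GC box and 19.7% for ACGTG. A match is a description of letters and not a bound site.

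The identity of the cells was checked with markers read in the same way. H3K27ac lay at a start of 11 of 15 stromal markers (background 37.6% in hypoxia), Pdgfra and Ly6a of the sort among them. It was absent at the starts of Nt5e, Eng, Twist2 and Lepr. It lay at 2 of 12 leukocyte markers, Csf1r and Cd68, and not at Ptprc, which encodes CD45, or Spi1. Csf1r had no H3K4me3 at a start, and H3K27ac covered 14.5% of the Spi1 locus in hypoxia. Whether segments at the markers belonged to a neighbour was not checked. H3K27ac was found at 0 of 10 epithelial and 0 of 7 endothelial markers. H3K4me3 lay at a start of 14 of 15 stromal, 2 of 12 leukocyte, 4 of 10 epithelial and 1 of 7 endothelial markers (background 58.9%). The stromal marker without H3K4me3 was Ly6a. Among the erythroid and megakaryocyte markers, 4 of 8 had H3K4me3 at a start. The part of any residual leukocytes in the calls at Itgb7 and Itga2b was not tested.

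The genes that work with these chains were read from 3 lists. H3K27ac lay at a start of 25 of 32 integrin adaptors and signalling genes, among them talin (Tln1), vinculin (Vcl), Ilk and Pxn, at both oxygen levels (78.1%, beside 37.6% of all protein-coding genes in hypoxia). The 7 without it were Tln2, Parvb, Parvg, Lims2, Fermt1, Fermt3 and Ptk2b. Of these, Parvg and Fermt3 are known mainly from blood cells and Fermt1 from epithelia. Of 20 basement membrane partners and other laminin receptors, 8 had it at both oxygen levels (40%, near the background), and Nid1, Col4a1 and Col4a2 did not.

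Some of these partners differed between oxygen levels. Of 25 integrin ligands, 10 had H3K27ac at a start in hypoxia (40%, again near the background) and 7 in normoxia. The 3 called in hypoxia alone were Tnc, Thbs2 and Ccn3, which encode matricellular proteins. A hypoxia-only H3K27ac segment lay in the locus of 15 of the 77 genes in the 3 lists (background 4.68%), namely Ilk, Zyx, Flna, Cd151, Cd47, Tnc, Thbs2, Tgfbi, Fbn1, Fbln5, Ccn3, Nid2, Hspg2, Sgcd and Smoc1. A normoxia-only segment lay at 4 (background 1.15%), which were Tns3, Thbs1, Ccn2 and Ntn4. The background counts all protein-coding genes, and 45.1% of those had no H3K27ac in the locus in hypoxia. The median locus share under H3K27ac in hypoxia was 11.6% for the 77 genes, beside 2.53% for all protein-coding genes. Shares by segment were not computed for the partners, and the part of locus length and H3K27ac extent in these counts was not tested. Partner loci were read with the same 20000 bp flanks, and whether their segments lay nearest to a neighbour was not checked. Whether partners and chains differ in their response to oxygen was not tested.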

How the data were processed

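Per the methods and the submitters' processing notes, the authors aligned reads to mm10 (Bowtie2), discarded duplicates (Picard) and ran chromstaR in its differential mode to call peaks. The deposited score of each peak is the authors' own. Its definition is not given in the sources used here, and it was taken as rising with confidence. Percentiles were taken within a list. Raw scores of both oxygen levels are also given side by side, although whether they share a scale is unknown. The 4 lists form 1 segmentation: overlaps between lists were identical intervals, and all boundaries were multiples of 500 bp, so lists are not independent.

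Genes and starts came from GENCODE M21 (basic set, mm10). All 36 chains and all 129 pathway and marker symbols matched, 3 through older symbols. The 36 genes and all lists were chosen with earlier results of these data known. Named with values were genes with a condition-specific segment, the 5 of each class with most H3K27ac, leukocyte or epithelial chains with H3K27ac at a start, and stromal chains without H3K4me3. Other genes were named after their values were seen. The count of genes with H3K27ac in the body and the 10 kb limit for a domain were also chosen after the data had been seen. Promoters were chosen by class among genes with a RefSeq entry, which 13 lacked. The Itgb5 segment was printed although it touches H3K4me3. No test was possible without values per library. Counting was tested on simulated data. Python 3.11.15, pandas 2.3.3 and pysam 0.24.0 were used.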

Additional observations from a re-analysis of the deposited data

How the results depend on the processing

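No paired analysis was possible because each list pools both libraries of its group and carries no replicate numbers, and for the same reason no replicate could be left out. Of the values recomputed under alternative settings, 95 stayed within the limits set for them (for shares of a class, the 95% Wilson interval, which is wide), 35 moved past them and 0 reversed. Within the limits, H3K27ac at leukocyte starts went from 22.2% to 33.3% with a 2500 bp window and to 11.1% with at least 50% of the window covered. That share was 14.3% (1 of 7) with the narrow classes described below, which leave out the platelet chain Itga2b and Itga4. Values hold for both oxygen levels unless given apart. Without the lowest-scoring 25% of each list, H3K4me3 at a start fell from 93.8% to 68.8% of stromal chains and from 11.1% to 0% of leukocyte chains, and H3K27ac from 9.09% to 0% of epithelial chains. The median locus share under H3K27ac became 10.8% in hypoxia and 9.6% in normoxia for stromal chains, 0% for epithelial chains and, in normoxia, 0% for leukocyte chains. With narrow classes, which left out 11 chains of broad or unclear class, among them 5 stromal chains without H3K27ac at a start (Itga7, Itga8, Itga9, Itga10 and Itgb3), H3K4me3 stood at 100% of stromal and 0% of leukocyte chains, H3K27ac at 81.8% of stromal and 0% of epithelial chains, and the stromal locus share at 30.7%. With Itga4 counted as stromal, H3K4me3 was at 0% of leukocyte chains. In gene bodies alone the locus share was 0% for leukocyte and epithelial chains. H3K27ac segments numbered 71 in hypoxia and 72 in normoxia, 41 and 42 in gene bodies, 46 and 47 with 5000 bp flanks, and 35 and 36 where the nearest coding start was the chain's own. The normoxia-only count went from 1 to 0 without the lowest-scoring 25% and when no segment of the other oxygen level was allowed within 1000 bp. The hypoxia-only count was 0 in each alternative. The unknown depth limits every absent call.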
